A study of Mus musculus with 6 samples.

Results

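The cyclins, the cyclin-dependent kinases (CDKs), the CDK inhibitors and the E2F factors with their partners were examined in early mouse thymocytes from animals labelled as Egr1/Egr3 double knockout and wild type. Members were all probe sets whose platform gene symbol is a cyclin (Ccn and 1 letter), a numbered Cdk, a Cdkn gene or a numbered E2f, together with Rb1, Rbl1, Tfdp1, Tfdp2, Cables1, Cables2, Cks1b and Cks2. They came to 157 of the 45101 probe sets on the array and to 68 genes. The 3 arrays of the double knockout group are titled as double knockout thymus 1 to 3, and the 3 wild type arrays as wild type thymus 1 to 3. These titles number the samples and do not say whether each number is 1 animal. The sample descriptions speak of double negative thymocytes, which lack the CD4 and CD8 coreceptors, isolated by flow cytometry, whereas titles and source names give whole thymus. The titles also state that the mRNA was amplified. The labels state neither strain, sex nor age, nor which part of each gene was deleted, and list no other treatment. The comparison asks how cell cycle regulators differ between thymocytes of the 2 genotypes.

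Cyclins bind CDKs and switch them on. D cyclins with CDK4 or CDK6, and then E cyclins with CDK2, phosphorylate the retinoblastoma family of pocket proteins, which frees E2F factors bound to a DP partner to activate genes of DNA replication. A cyclins follow in S phase, and B cyclins with CDK1 drive mitosis. INK4 proteins inhibit CDK4 and CDK6, and CIP/KIP proteins bind a wider range of cyclin-CDK complexes. In the thymus, the pre-T cell receptor triggers a burst of division at the double negative stage, and cyclin D3 is needed for it.

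Values are intensities as deposited, 1 for each probe set and array, and bulk RNA cannot tell fewer cells that express a gene from less RNA in each cell. Each array median lay between 19.9 and 23.1. The brightest of 27 control probe sets for bacterial genes read between 19.0 and 29.9 and serves as a level under which no signal can be told from background. The small number of arrays, 3 of each genotype, sets the precision of the values. Egr1 itself read 1757, 1696 and 1221 on the double knockout arrays, against 508, 509 and 455 on the wild type arrays, so it was higher in the arrays labelled double knockout (log2 change 1.60, SE 0.22, adjusted p = 0.00371). The brighter Egr3 probe set read 34.4, 45.8 and 32.9 on the double knockout arrays, against 92.2, 83.1 and 30.8 on the wild type arrays (log2 change -0.59, SE 0.35, adjusted p = 0.528). No source used here says where these probe sets lie relative to the deletions, so they check the labels only in part. The Egr1 signal goes against the label, and double knockout and wild type arrays below always mean arrays so labelled. Eif2s3y, a gene of the Y chromosome, read between 186 and 265 on the double knockout arrays, against 476, 13.2 and 0.625 on the wild type arrays, and Xist, the RNA of the inactive X, read 3910 or more on the double knockout arrays, against 1439, 3977 and 5311 on the wild type arrays. Both signals lay above the brightest bacterial control on every double knockout array and on wild type array 1. Kdm5d, another gene of the Y chromosome, gave less signal on its brightest probe set. It read 17.5, 29.5 and 10.3 on the double knockout arrays, against 144, 8.81 and 2.52 on the wild type arrays. It lay above that control on 1 double knockout array and on wild type array 1. Whether each array holds RNA of 1 animal was not tested.

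Wild type array 3 stood apart from the other wild type arrays. Summed over the 13 granulocyte markers on the array, the signal was 23501, 18689 and 28008 on the double knockout arrays, against 11656, 25297 and 413 on the wild type arrays, with S100a8 at 20.4 and Lcn2 at 1.65 on wild type array 3. The summed signal of 6 erythroid markers was 479, 433 and 436 in double knockouts, against 532, 139 and 3961 in wild types. On wild type array 3, Alas2 read 3142 and Slc4a1 636, and no other erythroid marker read above 50.6. Klf1 and Gata1 lay there within the range of the other arrays. Cd4 read under the brightest bacterial control on the 6 arrays, while the CD8 gene probe sets read 65.9 or more. Of 11 DN3 markers, which belong to the pre-T cell receptor stage, 3 were lower in double knockouts (Ptcra, Il2ra and Dntt) and 0 higher, and their summed signal was 29986, 27888 and 28324 on the double knockout arrays, against 36742, 38000 and 51854 on the wild type arrays. Ptcra read between 1056 and 1469 on the double knockout arrays, against 4154 to 5145 on the wild type arrays, while Cd3d (-0.08, SE 0.24) and Cd247 (0.85, SE 0.26) did not pass, the second of them passing as higher without wild type array 3 (0.96, SE 0.26, adjusted p = 0.0341). Cd3e did not pass either (-1.59, SE 0.47, adjusted p = 0.0797), but passed as lower without that array (-2.01, SE 0.43, adjusted p = 0.0121). Without that array 4 DN3 markers were lower and 1 higher. Of 7 NK cell markers tested, 3 were higher in double knockouts, Nkg7 (2.96, SE 0.31, adjusted p = 0.000352), Klrd1 (1.82, SE 0.32, adjusted p = 0.00756) and Gzmb (1.45, SE 0.22, adjusted p = 0.00382). The others did not pass, Gzma with -0.08 (SE 0.19), Prf1 with 0.35 (SE 0.27), Eomes with -0.17 (SE 0.26) and Klrk1 with -0.01 (SE 0.40). Of 7 B cell markers tested, Cd79b alone was higher (1.10, SE 0.27, adjusted p = 0.0388), and the list had a median of -0.33. Of 11 macrophage and dendritic cell markers tested, Cd14 alone was higher (1.44, SE 0.34, adjusted p = 0.0323), with a list median of 0.27. Without wild type array 3, 1 marker of each list was lower, Ighm (-1.19, SE 0.22, adjusted p = 0.0056) and Itgax (-1.11, SE 0.30, adjusted p = 0.0357). Of the granulocyte markers, Mpo alone passed without that array, as lower (-1.14, SE 0.28, adjusted p = 0.0249). Of 9 thymic epithelium and stroma markers tested, none passed with all arrays. Epcam alone of these was higher without wild type array 3 (2.18, SE 0.45, adjusted p = 0.00942). The part of these markers in the results was not tested. The part that the composition of wild type array 3 plays in the results was not tested, and calls that depend on it are given with and without it for members named below and, as counts, for the lists around them.

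Few members differed between the genotypes. A change is the mean log2 value (intensity plus 16, each array centred on its median) of the double knockout arrays minus that of the wild type arrays, tested with limma over 27022 probe sets. Of the 157 member probe sets, 129 were bright enough to be tested, and 9 passed the threshold of 0.05 on the adjusted p. They are 6.98% of those tested, near the 5.03% of all probe sets that passed. In 4 of them the double knockout was higher (2.91% of all probe sets were) and in 5 lower (2.11% of all were). The 9 belong to 6 genes. Cables1, Cdkn2d and Ccng2 rose, and Cdk4 and E2f2 fell, while a minor probe set of Cdk16 fell as the brightest probe set of that gene did not. Taking the brightest probe set of each gene, 66 of the 68 genes were tested, 3 rose and 2 fell (7.58%, where 6.26% of all genes passed). The other 61 had changes between -1.46 and 0.92, and the median over the 66 was -0.03, against 0.00 over all probe sets tested. The groups did not overlap in 36 of the 129 probe sets (27.9%, where 24.3% of all probe sets did not overlap), 19 with the double knockout above and 17 with it below. The plot of the 9 probe sets shows each array.

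**Figure D1:**
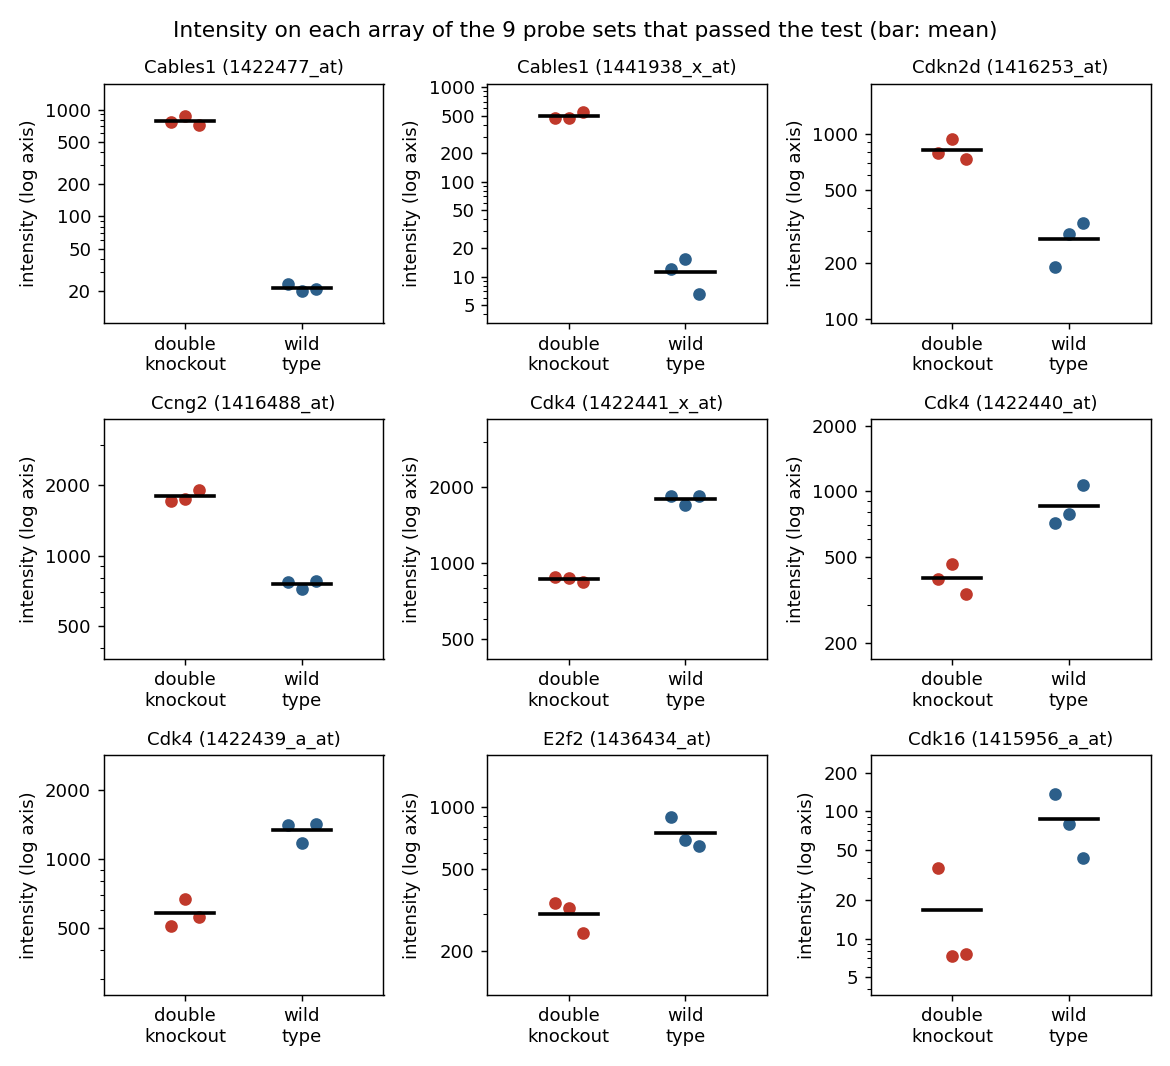
Intensity (log axis) on each array for the 9 member probe sets that passed the test, with the double knockout arrays left and the wild type arrays right, a point for each array and a bar at the mean. No panel has overlapping groups, and Cables1 has the widest gap (771, 873 and 713 on the double knockout arrays, against 23.5, 20.2 and 21 on the wild type arrays).

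**Figure D2:**
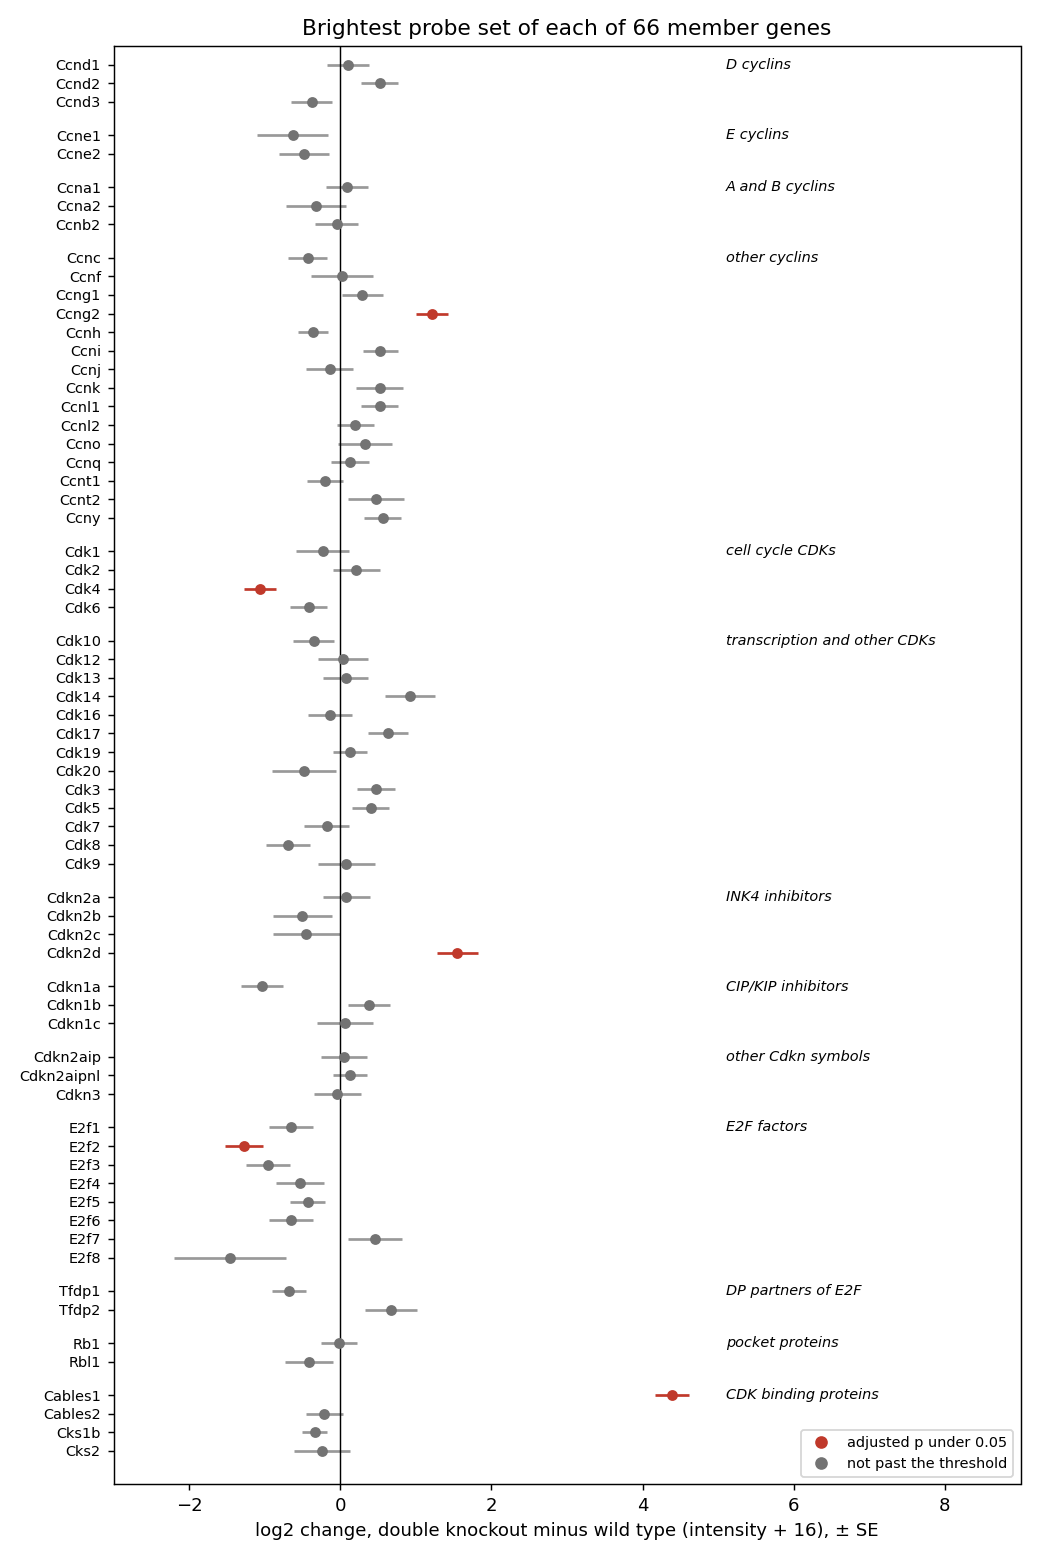
Log2 change (double knockout minus wild type, intensity plus 16) of the brightest probe set of 66 member genes, ordered by role, with bars of 1 SE. Points in red passed the test. Most points lie within 1 of 0, Cables1 stands at 4.39, and 7 of the 8 E2F genes lie below 0.

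Among the kinases of the cell cycle, Cdk4, the partner of D cyclins in G1, fell on each of its 3 probe sets. The brightest read 881, 869 and 838 on the double knockout arrays, against 1840, 1692 and 1835 on the wild type arrays. Every double knockout array lay below every wild type array, and the arrays of each group lay close together. The mean was 863 ± 22.2 in double knockouts, against 1789 ± 84 in wild type (SD, n = 3 each), a log2 change of -1.06 (SE 0.21, adjusted p = 0.0145). The other probe sets gave -1.20 (SE 0.22, adjusted p = 0.00992) and -1.09 (SE 0.25, adjusted p = 0.03). The first of these, which averaged 579 ± 78.4 in double knockouts and 1334 ± 139 in wild types, kept its call without any 1 array other than double knockout array 1 (adjusted p = 0.0981). The brightest probe set missed the threshold without double knockout array 1, 2 or 3 or without wild type array 2 (adjusted p = 0.0982, 0.0559, 0.0621 and 0.0529), and the third missed it without the same arrays (adjusted p from 0.0691 to 0.149), while its change stayed between -0.93 and -1.23 under all alternatives.

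Cdk6, the other partner of D cyclins, read 1991, 2672 and 1726 on the double knockout arrays, against 2163, 2788 and 3549 on the wild type arrays. These ranges overlap, and the log2 change of -0.42 (SE 0.25, adjusted p = 0.407) did not pass. A second bright Cdk6 probe set gave -0.70 (SE 0.29, adjusted p = 0.221), with wild type array 3 at 1698 and the other wild type arrays at 3043 and 3832. Without wild type array 3 it gave -1.04 (SE 0.21, adjusted p = 0.00934), while the brightest gave -0.26. Cdk2, which acts with E and A cyclins, read 215, 222 and 105 in double knockouts, against 116, 152 and 171 in wild type (log2 change 0.21, SE 0.31, adjusted p = 0.779).

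Of the D cyclins none passed the test. Cyclin D2, encoded by Ccnd2, read 2506, 2379 and 2356 on the double knockout arrays, against 1341, 2171 and 1557 on the wild type arrays, on its brightest probe set. The double knockout arrays were the 3 highest, but the wild type spread was wide and the change of 0.52 (SE 0.24, adjusted p = 0.274) did not pass. The 6 other Ccnd2 probe sets gave values between 0.30 and 0.45, all of the same sign and none past the threshold. Ccnd3, the D cyclin of thymocyte expansion, had a change of -0.38 (SE 0.27) on its brightest probe set and of 0.38 (SE 0.39) and 0.14 (SE 0.35) on the others, so its probe sets differed in sign. Ccnd1 was dim, between 19.5 and 45.8 on its brightest probe set.

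The E cyclins, which carry cells into S phase, had negative changes that did not pass. Ccne1 read 750, 644 and 500 on the double knockout arrays, against 2582, 595 and 572 on the wild type arrays, on its brightest probe set, so that wild type array 1 alone stood above the rest (log2 change -0.63, SE 0.47, adjusted p = 0.522). Its other probe set read 185, 95.9 and 180 in double knockouts, against 338, 315 and 168 in wild types, with wild type array 3 low (log2 change -0.78, SE 0.34, adjusted p = 0.236). Without wild type array 3 that probe set passed, at -1.09 (SE 0.30, adjusted p = 0.0386). Ccne2 read 229, 478 and 235 in double knockouts, against 328, 348 and 618 in wild types (log2 change -0.48, SE 0.33, adjusted p = 0.489).

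Of the inhibitors, Cdkn2d alone passed. Cdkn2d, the INK4 inhibitor p19 of CDK4 and CDK6, read 785, 932 and 732 on the double knockout arrays, against 191, 287 and 332 on the wild type arrays, with no overlap. It averaged 816 ± 104 in double knockouts and 270 ± 71.8 in wild types (SD, n = 3 each), 3.02 times as high, with a log2 difference of 1.55 (SE 0.27, adjusted p = 0.00698). It missed the threshold without double knockout array 1 (1.55, adjusted p = 0.0559). Its relative Cdkn2c, the INK4 inhibitor p18, read 608, 589 and 489 in double knockouts, against 1003, 1392 and 313 in wild type. Wild type array 3 was the lowest of the 6 and the other wild type arrays the highest, and the change was -0.45 (SE 0.44, adjusted p = 0.653), or -1.09 (SE 0.25, adjusted p = 0.0165) without wild type array 3. Cdkn2a and Cdkn2b, the remaining INK4 genes, were dim, with no value above 33.6.

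Cdkn1a, the CIP/KIP inhibitor p21 that p53 induces, lay just outside the threshold. It read 119, 155 and 212 on the double knockout arrays, against 322, 414 and 287 on the wild type arrays, without overlap (log2 change -1.04, SE 0.28, adjusted p = 0.0541). It passed without wild type array 3 (-1.16, SE 0.28, adjusted p = 0.0216), and a dimmer probe set gave -0.46 (SE 0.30). Cdkn1b, the CIP/KIP inhibitor p27 of resting lymphocytes, read 306, 245 and 304 in double knockouts, against 288, 218 and 149 in wild types (log2 change 0.38, SE 0.28, adjusted p = 0.522). Cdkn1c, the inhibitor p57, was near the bacterial controls, with means of 19.7 in double knockouts and 20.7 in wild types. Cdkn3, which encodes a phosphatase that acts on CDKs, had a change of -0.04 (SE 0.31).

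Cables1, an adaptor that binds CDKs, had the largest change of the members tested. It read 771, 873 and 713 on the double knockout arrays, against 23.5, 20.2 and 21 on the wild type arrays, which gives a log2 difference of 4.39 (SE 0.23, adjusted p = 4.13e-06). Its second probe set read 472, 470 and 544 in double knockouts, against 12, 15.4 and 6.47 in wild types (4.22, SE 0.25, adjusted p = 7.37e-06). Of the wild type values, 1 of 3 lay above the brightest bacterial control on the first probe set, by a small margin, and 0 of 3 on the second. With the wild type level set to that control where it was lower, the gene was at least 31.4-fold and at least 19.8-fold higher on these probe sets, as intensities without the offset. Both calls held under every alternative run on them (16 and 15, the adjusted p reaching 0.000242). Cables1 lies on chromosome 18 (11839274 to 11945627, GRCm38.p6), as Egr1 does, 23.0 Mb away. Ccny, a membrane-bound cyclin gene on the same chromosome and 25.5 Mb from Egr1, had a change of 0.56 (SE 0.24, adjusted p = 0.229), and Rb1, 3.1 Mb from Egr3 on chromosome 14, a change of -0.02 (SE 0.24). Cables2, the paralog of Cables1, read between 45.0 and 67.4 in double knockouts and between 55.8 and 75.5 in wild types (log2 change -0.21, SE 0.24, adjusted p = 0.713).

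The small CDK subunits Cks1b and Cks2, needed for the degradation of p27 and for mitosis, were among the bright members. Cks1b read 5487, 6103 and 5643 on the double knockout arrays, against 7731, 6451 and 7399 on the wild type arrays, without overlap but with a small change of -0.34 (SE 0.17, adjusted p = 0.321). Cks2 read 5230, 3438 and 5720 in double knockouts, against 9583, 5867 and 2897 in wild types, so wild type replicates were spread over a wider range than the difference between the groups (log2 change -0.24, SE 0.37, adjusted p = 0.789).

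Of the 15 other cyclin genes, Ccng2 alone passed. Cyclin G2 is an atypical cyclin that is high in resting cells and a known FOXO target. It read 1714, 1755 and 1922 on the double knockout arrays, against 767, 720 and 780 on the wild type arrays. The groups were tight and far apart, at 1797 ± 110 in double knockouts, against 756 ± 31.4 in wild types (SD, n = 3 each), 2.38 times as high (log2 change 1.21, SE 0.21, adjusted p = 0.00724). Without double knockout array 1 the change was 1.23 with an adjusted p of 0.0715. A dim second probe set, between 18.7 and 46.1, gave 0.08 (SE 0.29). Ccng1, the related p53 target, had 0.29 (SE 0.27) on its brightest probe set and 0.39 (SE 0.23) and 0.52 (SE 0.34) on the others, and none passed. The remaining genes of this group include Ccnh, the cyclin of the CDK-activating kinase (-0.36, SE 0.20), Ccnt1 and Ccnt2, partners of CDK9 in transcription elongation (-0.20, SE 0.24, and 0.47, SE 0.37), and the splicing-linked Ccnl1 (0.52, SE 0.24). Over the 15 genes 11 changes were positive and 4 negative, with a median of 0.29 and of 0.05 without wild type array 3.

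Among the kinases outside the core cycle, only a dim Cdk16 probe set passed. Cdk16, a kinase activated by cyclin Y, read 35.6, 7.27 and 7.54 on that probe set in double knockouts, against 138, 79.2 and 43.2 in wild types (log2 change -1.67, SE 0.40, adjusted p = 0.0349). In double knockouts 1 of the 3 values lay above the brightest bacterial control. The brightest Cdk16 probe set gave 3706, 5095 and 2120 in double knockouts, against 3523, 3214 and 4548 in wild types (-0.14, SE 0.29, adjusted p = 0.851). The call on the dim probe set was lost without double knockout array 2 or 3 and without wild type array 1 or 2 (adjusted p = 0.131, 0.12, 0.147 and 0.126), and also with an offset of 1 (adjusted p = 0.0513) or no filter (adjusted p = 0.082). Cdk8, a kinase of the Mediator complex, read 312, 285 and 302 in double knockouts, against 601, 594 and 321 in wild types, and its change of -0.69 (SE 0.29, adjusted p = 0.214) became -0.99 (SE 0.23, adjusted p = 0.0185) without wild type array 3. The 13 brightest probe sets of this group had changes between -0.69 and 0.92, with a median of 0.07, and Cdk18 was too dim to test.

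Of the 8 E2F genes, E2f2 alone passed, with a lower level in double knockouts. E2f2, an activator of replication genes, read 340, 322 and 244 on the double knockout arrays, against 894, 693 and 644 on the wild type arrays, without overlap. It averaged 302 ± 50.7 in double knockouts, against 744 ± 132 in wild types (SD, n = 3 each), with a log2 difference of -1.27 (SE 0.25, adjusted p = 0.0135). Without double knockout array 1 or 3 or wild type array 2 its adjusted p was 0.0638, 0.067 and 0.0543. A dimmer probe set gave 0.08 (SE 0.24), with 80.5, 126 and 84.9 in double knockouts, against 87.3, 84.7 and 93.4 in wild types. The other activators had negative changes that did not pass, E2f1 with -0.65 (SE 0.29) and -0.84 (SE 0.28) on its bright probe sets, and E2f3, which read 126, 113 and 137 in double knockouts, against 336, 299 and 166 in wild types, with -0.96 (SE 0.29, adjusted p = 0.0838). E2f3 passed without wild type array 3 (-1.26, SE 0.24, adjusted p = 0.0065). A dimmer E2f3 probe set gave -0.57 (SE 0.25), and -0.53 (SE 0.28) without that array, and passed in neither. Of the repressors, E2f4, E2f5 and E2f6 had -0.53 (SE 0.32), -0.43 (SE 0.23) and -0.65 (SE 0.29).

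The atypical repressors E2f7 and E2f8, which act late in S phase, had changes of opposite sign, neither past the threshold. E2f8 read 154, 119 and 166 on the double knockout arrays, against 1644, 522 and 77.1 on the wild type arrays. Its wild type arrays were far apart, and the change of -1.46 (SE 0.74, adjusted p = 0.327) became -2.58 (SE 0.37, adjusted p = 0.00128) without wild type array 3. E2f7 had 0.46 (SE 0.36), and 0.06 without that array. Over the 8 E2F genes the median change was -0.65, with 7 negative and 1 positive. Tfdp1, the main DP partner, read 785, 803 and 786 in double knockouts, against 1321, 1334 and 1134 in wild types, a change of -0.68 (SE 0.22, adjusted p = 0.106), or -0.76 (SE 0.21, adjusted p = 0.0401) without wild type array 3. Tfdp2, the other DP partner, read 324, 490 and 327 in double knockouts, against 179, 151 and 415 in wild types (0.67, SE 0.34, adjusted p = 0.327), and passed as higher without wild type array 3 (1.08, SE 0.26, adjusted p = 0.0195). Its dimmer probe sets gave 0.01 (SE 0.24), 0.21 (SE 0.27) and 0.90 (SE 0.37) without that array, and none of these passed. Of the pocket proteins, Rb1 read 440, 498 and 497 in double knockouts, against 615, 417 and 422 in wild types, while Rbl1, the p107 protein, read 391, 397 and 420 in double knockouts, against 741, 655 and 312 in wild types, a change of -0.41 (SE 0.32, adjusted p = 0.54) that was -0.80 (SE 0.23, adjusted p = 0.043) without wild type array 3. The other Rbl1 probe set tested gave -0.12 (SE 0.23), and -0.05 (SE 0.25) without that array.

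Cyclins and kinases of S phase and mitosis showed a difference among the wild type arrays rather than one that passed between the groups. Ccna2, the A cyclin of dividing cells, read 790, 812 and 943 on the double knockout arrays, against 1734, 1398 and 472 on the wild type arrays. The double knockout arrays lay together between wild type arrays 1 and 2 above and wild type array 3 below. Cdk1, the kinase of mitosis, had the same order, with 995, 1007 and 1083 in double knockouts, against 1772, 1562 and 609 in wild types. Ccnf read 187, 155 and 218 in double knockouts, against 250, 291 and 75.8 in wild types, and Ccnb2, a mitotic B cyclin, read 1112, 827 and 1469 in double knockouts, against 1200, 1363 and 876 in wild types. With all arrays the changes were -0.32 (SE 0.40) for Ccna2, -0.23 (SE 0.35) for Cdk1, 0.02 (SE 0.41) for Ccnf and -0.05 (SE 0.28) for Ccnb2. Without wild type array 3, Ccna2 (-0.90, SE 0.22, adjusted p = 0.022) and Cdk1 (-0.71, SE 0.21, adjusted p = 0.0482) passed, and Ccnf (-0.54, SE 0.26) and Ccnb2 (-0.24, SE 0.27) did not. A dimmer Ccna2 probe set gave -0.72 (SE 0.24, adjusted p = 0.0752) without that array and did not pass. Without wild type array 1, Ccna2 and Cdk1 had changes of 0.01 and 0.03. Ccnb3 was too dim to test.

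Wild type array 3 had the lowest value of the 6 arrays in 20 of the 66 tested member genes (30.3%), against 21.6% of all genes tested. Without it, 21 of 129 member probe sets passed (16.3%, where 10.2% of all probe sets passed), and these included the 9 that passed with all arrays. Of the 21, 16 were lower, in 14 genes (12.4% of the probe sets tested, where 5.04% of all were lower), and 5 were higher (3.88%, where 5.11% of all were higher). The count of lower probe sets was between 1 and 4 when any other array was left out. The heat map of the arrays sets these genes beside those that passed with all arrays.

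**Figure D3:**
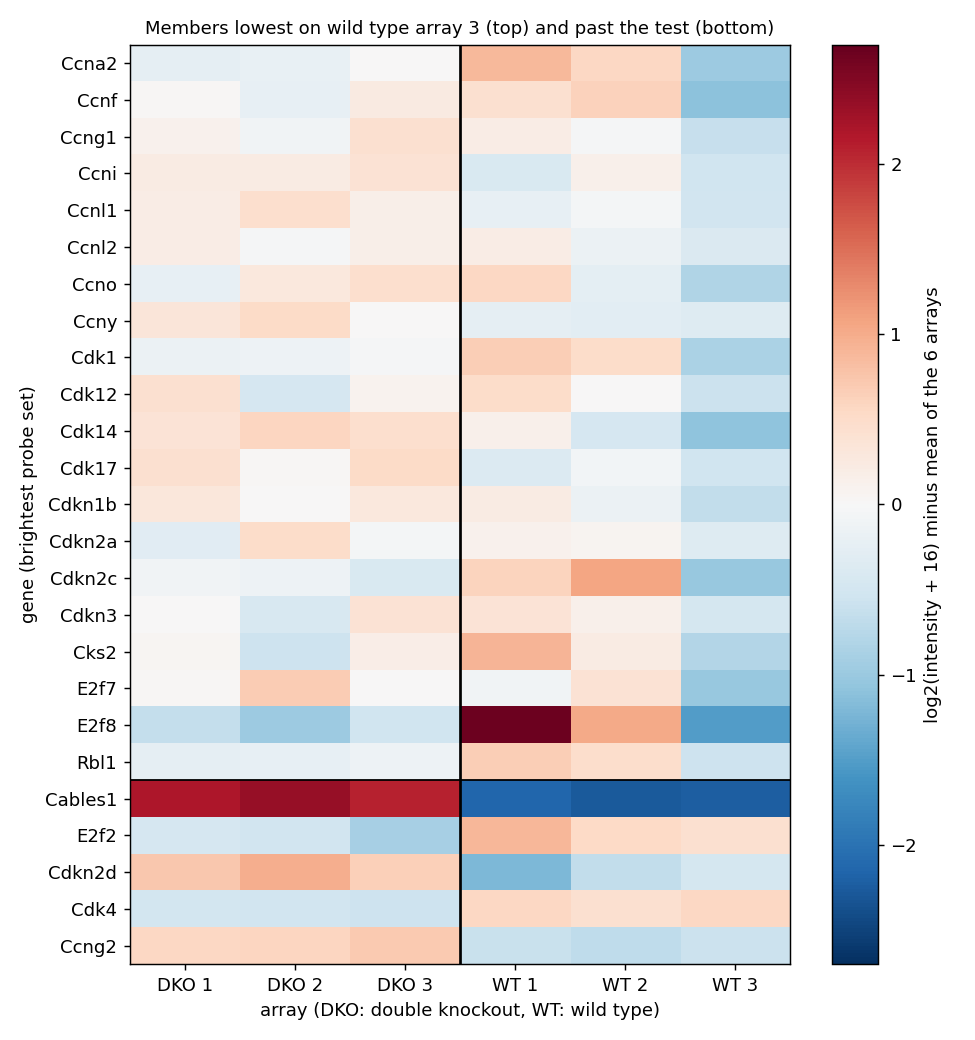
Log2 of intensity plus 16, minus the mean of the 6 arrays, for the brightest probe set of the 20 member genes lowest on wild type array 3 (above the line) and the 5 that passed the test (below it), with double knockout arrays left and wild type arrays right. Ccna2, Ccnf, Cdk1, Cdkn2c, Cks2, E2f8 and Rbl1 are high on wild type arrays 1 and 2 and low on wild type array 3, whereas Cables1, Cdkn2d, Ccng2, Cdk4 and E2f2 split by genotype.

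Promoter sequences were read for 53 of the 68 genes from RefSeq (GRCm38.p6), as the 250 bases before each start listed for a gene. For 9 of the 53 the table holds 2 starts, and a gene was counted when a word stood before either. Motifs were searched on both strands as exact letters. E2F words (TTTCCCGC, TTTGGCGC, TTTCGCGC or TTTGCCGC) stood in 7 of 53 members (13.2%), against 2.16% of 27025 genes with a promoter in the table. These were Cdk1, Cdk2, Cdkn2a, E2f3, E2f7, Rbl1 and Tfdp1, so neither Cdk4 nor E2f2 had one before a listed start. The E-box CACGTG, the site of MYC and MAX, stood in 8 members (15.1%, against 6.86%), and Cdk4 held 4 copies of it, a number that 5 of 27025 genes, Cdk4 included, reached (0.0185%). The CHR element TTTGAA of mitotic genes, which is contained in none of the other words, stood in 11 members (20.8%, against 18.3%), among them Cdk1, Ccnb2, Ccnf and E2f8. FOXO words (GTAAACA or ATAAACA) stood in 2 (3.77%, against 8.06%), and EGR words (GCGTGGGCG or GCGGGGGCG) in 3, Cdk13, Cdk14 and Cdkn2c (5.66%, against 3.47%). A match is a description of letters and not a site of binding.

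The sequences below are the 250 bases before a start of Cdk4 (chr10:127063285-127063534, plus strand), Cdk1 (chr10:69352913-69353162, minus strand), Rbl1 (chr2:157204535-157204784, minus strand), E2f2 (chr4:136172024-136172273, plus strand) and Ccng2 (chr5:93267323-93267572, plus strand), each 5′ to 3′. Cdk4, E2f2 and Ccng2 are shown from among the genes that passed the test, and Cdk1 and Rbl1 because their place between the groups turned on wild type array 3. The window before Cdkn2d, which also passed, holds none of the words and is not shown. No promoter was read for Cables1, which passed as well, so no word was searched before it. Capitals mark the words searched, which are E-boxes in Cdk4, an E2F word and then 2 CHR elements in Cdk1, and an E2F word in Rbl1. The Ccng2 window holds none of the words, and neither does the E2f2 window shown, while the window before a second E2f2 start, which is not shown, holds a CHR element that begins 31 bases before it.
Cdk4: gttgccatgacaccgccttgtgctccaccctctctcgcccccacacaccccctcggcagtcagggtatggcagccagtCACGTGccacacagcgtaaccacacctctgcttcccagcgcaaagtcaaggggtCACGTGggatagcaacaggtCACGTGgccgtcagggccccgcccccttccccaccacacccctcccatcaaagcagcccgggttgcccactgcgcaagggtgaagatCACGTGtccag
Cdk1: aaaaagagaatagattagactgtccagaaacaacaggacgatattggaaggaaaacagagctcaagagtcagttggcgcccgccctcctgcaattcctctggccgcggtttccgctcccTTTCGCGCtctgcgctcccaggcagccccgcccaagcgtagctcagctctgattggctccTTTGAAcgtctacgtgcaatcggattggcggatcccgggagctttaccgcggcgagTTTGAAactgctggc
Rbl1: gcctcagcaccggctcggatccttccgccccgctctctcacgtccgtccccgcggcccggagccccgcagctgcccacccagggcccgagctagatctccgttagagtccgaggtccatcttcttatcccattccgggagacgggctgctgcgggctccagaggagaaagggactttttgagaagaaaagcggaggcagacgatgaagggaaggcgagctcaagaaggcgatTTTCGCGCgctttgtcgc
E2f2: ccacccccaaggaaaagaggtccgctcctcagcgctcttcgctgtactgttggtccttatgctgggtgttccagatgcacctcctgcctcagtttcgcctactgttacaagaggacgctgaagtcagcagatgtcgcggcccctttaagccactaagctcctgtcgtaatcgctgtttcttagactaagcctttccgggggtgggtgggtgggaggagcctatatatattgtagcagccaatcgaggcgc
Ccng2: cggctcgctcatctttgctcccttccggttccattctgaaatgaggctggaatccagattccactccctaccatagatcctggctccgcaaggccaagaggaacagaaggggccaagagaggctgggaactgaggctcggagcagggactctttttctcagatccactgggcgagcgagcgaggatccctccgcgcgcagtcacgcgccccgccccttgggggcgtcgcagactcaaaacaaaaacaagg
The E-boxes of Cdk4 begin 172, 118, 98 and 11 bases before the start, and the E2F words of Cdk1 and Rbl1 begin 131 and 18 bases before it.

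Genes around the module were read from 7 lists, which were chosen with earlier results of these data known. Of 38 tested E2F target genes of S phase, 10 were lower and 0 higher, with a median log2 change of -0.69, where 2.54% of all genes were lower. Mcm2, a subunit of the replicative helicase, read 711, 548 and 955 on the double knockout arrays, against 3168, 2097 and 1370 on the wild type arrays (-1.53, SE 0.32, adjusted p = 0.0185). Mcm3, another subunit, read 916, 916 and 925 in double knockouts, against 1892, 2064 and 1692 in wild types (-1.04, SE 0.22, adjusted p = 0.0185), the dUTP pyrophosphatase Dut fell by 1.20 (SE 0.21, adjusted p = 0.00824), and the uracil glycosylase Ung fell by 1.38 (SE 0.29, adjusted p = 0.0182). Summed over the list the signal was 50946, 49381 and 50178 on the double knockout arrays, against 99122, 80718 and 70841. The count of lower genes was 0 without double knockout array 1, 2 or 3 without any 1 of double knockout arrays 2 and 3 and wild type arrays 1 and 2, and 23 without wild type array 3, while the median stayed between -0.56 and -0.83.

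No gene passed among 34 that act in G2 and mitosis (median -0.11), and 8 were lower without wild type array 3 (median -0.55), where 5.97% of all genes were lower and 6.42% higher. The median was 0.09 without wild type array 1 and 0.10 without wild type array 2, so its sign depended on the wild type array left out. Of the 4 with the smallest p, Espl1, the separase of chromosome segregation, had -0.69 (SE 0.35), Nek2 had -0.64 (SE 0.42), the centromere histone Cenpa had 0.46 (SE 0.21) and Racgap1 had 0.53 (SE 0.28). None of 21 CDK phosphatases, CDK kinases and ubiquitin ligases passed either (median -0.09, and 3 lower without wild type array 3). Skp2, the ligase subunit that degrades p27, read 276, 316 and 412 on the double knockout arrays, against 1182, 951 and 446 on the wild type arrays (-1.25, SE 0.34, adjusted p = 0.0604), and passed without wild type array 3 (-1.67, SE 0.25, adjusted p = 0.00152). Of 8 genes of the DREAM and MuvB complex, which represses cell cycle genes in resting cells, none passed. Mybl2, its activating partner in cycling cells, read 63.3, 73.6 and 62.3 in double knockouts, against 212, 183 and 97.3 in wild types (-1.09, SE 0.29, adjusted p = 0.0533), and was the 1 gene of the list to pass without wild type array 3 (-1.40, SE 0.24, adjusted p = 0.00341). The pocket protein Rbl2 had a change of 0.10 (SE 0.25).

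Of 17 FOXO and quiescence genes tested, 7 were higher and 0 lower (median 0.77), where 3.72% of all genes were higher. On the same arrays 3 of the 7 NK cell markers tested were higher. Txnip, a thioredoxin inhibitor that is high in resting cells, read 7671, 8043 and 6756 on the double knockout arrays, against 1119, 1095 and 1613 on the wild type arrays (2.54, SE 0.22, adjusted p = 8.69e-05). The death promoter gene Bcl2l11 rose by 2.12 (SE 0.26), the quiescence factor gene Klf2 by 1.52 (SE 0.30) and the cytokine receptor gene Il7r by 1.50 (SE 0.22). Between 3 and 8 of the 17 were higher when an array was left out, the fewest without double knockout array 1 or wild type array 1. In the MYC and MXD network Myc fell by 1.86 (SE 0.25, adjusted p = 0.00179), with 278, 230 and 299 in double knockouts, against 1100, 1121 and 808 in wild types. Mxd4, an antagonist of MYC, rose by 1.49 (SE 0.21, adjusted p = 0.00232), with 3130, 3370 and 3116 in double knockouts, against 1094, 1258 and 1020 in wild types. The other 8 genes did not pass, and without wild type array 3 Max (-1.63, SE 0.34, adjusted p = 0.00934) and Mxd3 (adjusted p = 0.0376) passed as lower. Max was dim, with 26.3, 5.26 and 19.4 in double knockouts, of which 1 lay above the brightest bacterial control. Of 14 p53 targets tested, 1 was higher and 0 lower with all arrays (median 0.24), where 3.72% of all genes were higher. Those that did not pass had changes of both signs, from -0.93 to 1.07. The 1 that passed was Perp (1.20, SE 0.29, adjusted p = 0.0383), and its wild type values lay under the brightest bacterial control of their arrays. Its call was lost without double knockout array 1, 2 or 3 (adjusted p = 0.164, 0.0703 and 0.133) and without wild type array 1 (adjusted p = 0.127). Without wild type array 3, Trp53inp1 (1.09, SE 0.19, adjusted p = 0.00372) and Btg2 (1.25, SE 0.28, adjusted p = 0.0152) were higher as well and 0 targets were lower, where 6.42% of all genes were higher.

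**Figure D4:**
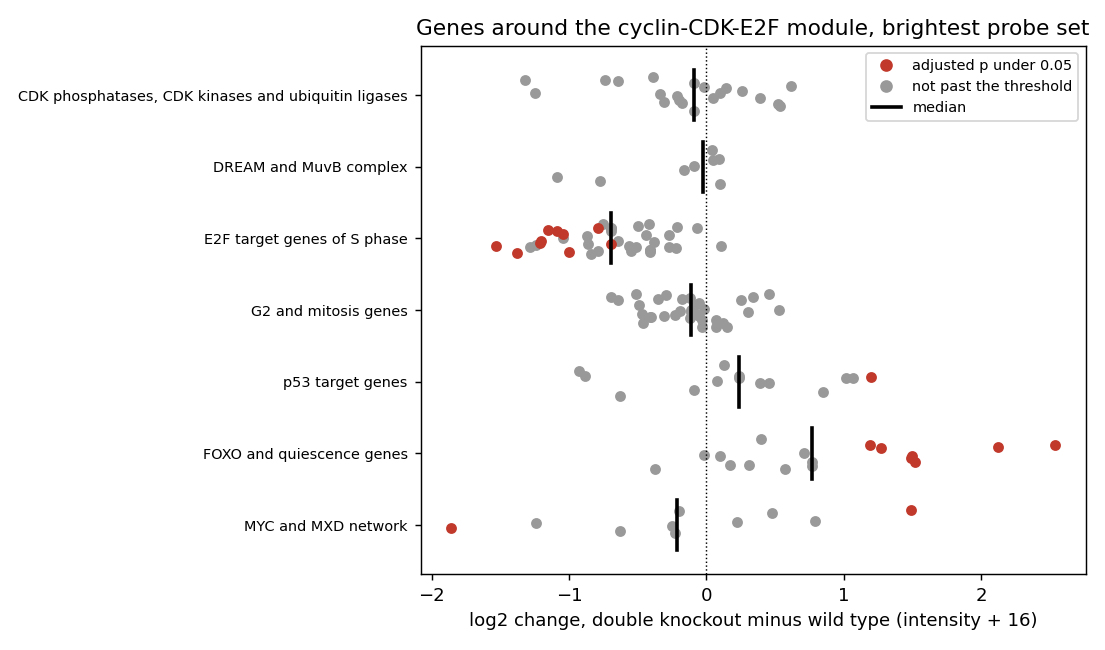
Log2 change (double knockout minus wild type, intensity plus 16) of the brightest probe set of each tested gene in 7 lists around the module, a point for each gene, red where it passed the test and grey where it did not, with a black bar at the median. The bar of the E2F target list stands at -0.69 and that of the FOXO and quiescence list at 0.77, and the mitosis list centres at -0.11.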

How the data were processed

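Expression was measured on 6 single-colour arrays. The authors deposited linear intensities, 1 for each of 45101 probe sets and array, on a shared scale: trimmed to the middle 96%, each array averages 150.001. The sources used here name no scanner software or probe summary.

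After 64 controls were left out, 16 was added, log2 taken and each array centred on its median (the medians differed by 0.126). Testing was limited to probe sets whose mean log2 value reached the 40th percentile (4.869, or 13.22 as intensity). The double knockout group was compared with the wild type group with limma 3.58.1 in R 4.3.3 (lmFit, eBayes with an intensity trend), two-sided, with Benjamini-Hochberg adjustment over 27022 probe sets at 0.05. For Egr1 and Egr3 all probe sets entered the fit. The procedure was tested on simulated data. P-values measure the spread between arrays.

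Genes were named through a platform annotation, in which 34945 probe sets have 1 symbol, 932 several and 9160 none here. A gene stands by its probe set of highest mean. Named are members with a probe set past the threshold, the members of each role, and, for each list of other genes, at most 4 with the lowest p. Rbl2, Mxd3, Eif2s3y, Kdm5d, Xist and the cell type markers were named after their values were seen. The members and lists were chosen with earlier results of these data known.

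Same-numbered arrays of the 2 groups did not deviate together (correlations of -0.0467, -0.133 and -0.291), so the numbers were not used as pairs. Alternatives were each array left out, 1 probe set for each gene, the replicate number as a block, weights for arrays, no trend with intensity, no filter or one at percentile 60, offsets of 1 and 64, quantile normalization and no centring.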

Additional observations from a re-analysis of the deposited data

How the results depend on the processing

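With 3 arrays in each group, counts moved with the arrays used. Leaving out 1 array gave between 2 and 5 member probe sets higher and between 1 and 16 lower, between 243 and 1381 of all probe sets higher and between 133 and 1363 lower, and between 4 and 12 genes of the other lists higher and between 1 and 38 lower (9 higher and 11 lower with all arrays). Array weights gave 14 member probe sets lower, 1769 of all probe sets higher and 1648 lower, and 14 list genes higher and 30 lower. Without the filter 6 list genes were lower, and without the intensity trend 7. With the replicate number as a block, 1 member probe set was lower (the dim one of Cdk16) and 3 were higher, since Ccng2 lost its call (adjusted p = 0.0584) as Cdk4 and E2f2 did, 394 of all probe sets were higher and 179 lower, and 5 list genes were higher and 2 lower; the cause was not tested. No array correlated best with its own number. With 3 arrays in each group these correlations cannot exclude that the numbers pair arrays. With 1 probe set for each gene, Cdkn1a passed as well. Leaving out 1 array moved the changes of Ccna2 between -0.90 and 0.01, Cdk1 between -0.71 and 0.03, Cdkn2c between -1.09 and 0.01 and Lin54 between -0.44 and 0.08. Each was lowest without wild type array 3 and turned positive without wild type array 1 (Ccna2, Cdk1, Lin54), wild type array 2 (Cdkn2c) or double knockout array 2 (Lin54, 0.04). Cables1 kept its call under every alternative run on it. Signal near the bacterial controls limits what the 28 untested member probe sets, and the wild type level of Cables1, can show. The filter cut of 13.22 lies under the brightest of these controls, so the same limit holds for the dim probe sets that were tested, such as those of Cdkn2a and E2f4.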
